A study of Mus musculus with 43 samples.

Results

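The 10 mouse genes described here are Lpar3, Mchr1, Itga9, Cd93, Pecam1, Pik3r6, Rhobtb1, Fbxo27, Mypn and Umodl1. They were chosen by their own measured values at 24 h, because all-trans retinoic acid (RA) lowered their transcripts in wild-type (WT) germ cell cultures and raised them in Stra8-knockout (KO) cultures. They are 10 of the 46983 genes in the deposited table, and all 10 passed a filter on low values that kept 16297 genes. The 24 h values are therefore given as a description without a test. For the 10 genes, tests are given only for comparisons among libraries at 0, 4 and 8 h, which the choice did not use. The spread in each test is pooled over all 14 groups, those at 24 h included. The tests are therefore not wholly independent of the choice. At 24 h tests are given for other genes.

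RNA was sequenced from cultures started from THY1+ testis cells and grown with STO fibroblast feeders of mouse origin in medium with GDNF, GFRA1 and FGF2, between passages 3 and 12. Every group shares these conditions. The 14 groups are WT and KO cultures that were untreated at 0 h, or that received RA or 0.01% DMSO for 4, 8 or 24 h. Each group holds 3 libraries, 1 from each of 3 culture lines that the labels name WT17, WT23 and WT25 or KO12, KO20 and KO21. Whether each line came from a separate mouse is not given, and neither is the age of the animals or the Stra8 allele, so p-values measure the spread between these lines. The RA dose is labelled 0.01 M, which the values cannot check. Feeder RNA is part of each library, and in such bulk samples fewer cells of a type and less RNA per cell cannot be told apart.

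RA drives spermatogonia towards differentiation and meiosis, through receptors that bind DNA at repeats of a short hexamer. STRA8 is induced by RA and is needed in mouse germ cells for the normal start of meiosis, where it acts in the nucleus together with MEIOSIN. The 10 genes have different roles. Lpar3 encodes a receptor for lysophosphatidic acid (LPA) and Mchr1 a receptor for melanin-concentrating hormone (MCH), both coupled to G proteins. Itga9 encodes the alpha9 integrin subunit, and Cd93 and Pecam1 encode surface glycoproteins known from endothelial and blood cells. Pik3r6 encodes a regulatory subunit of PI3K gamma. Rhobtb1, which binds CUL3, and Fbxo27, an F-box protein that recognises glycoproteins, encode substrate adaptors of ubiquitin ligases. Mypn encodes myopalladin, a sarcomere protein that also binds actin, and Umodl1 an uromodulin-like protein with a zona pellucida domain.

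Germ cell markers were high, with a median level of 12.54 on the log2 scale over the 13 listed. Stra8 itself was at 14.73, 14.10 and 14.69 in WT17, WT23 and WT25 at 24 h of RA, and at 9.79, 9.69 and 9.47 in KO12, KO20 and KO21. Which part of Stra8 was deleted is not given, so a remaining transcript says little about the labels. Stra8 was at 11.59 in the WT23 library labelled DMSO 4 h against 7.93 and 8.12 in WT17 and WT25, and at 9.64 in KO20 against 6.46 and 6.63 in KO12 and KO21. The KO20 library labelled DMSO 4 h lay closer to KO20 at 24 h of RA than any other of the 861 library pairs, with an SD of log2 differences of 0.0488 over 10054 genes against 0.116 for the next closest pair. It was the highest of the 3 KO libraries labelled DMSO 4 h for all 10 genes and within 0.18 of KO20 at 24 h of RA for each. Since the 24 h library was used in the choice, the tests of the 10 genes at 4 h in KO that keep this library are not independent of the choice, and it enters the pooled spread of every test with all libraries. The column names of the deposited table mark this library and WT25 DMSO 4 h as deviating. Results are given with all 42 libraries and without these 3 (WT23, WT25 and KO20, all labelled DMSO 4 h), which leaves 1 WT library in DMSO at 4 h and 16268 genes tested.

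Promoter sequences are shown for Lpar3, Mypn and Fbxo27, the genes for which the RA effects in KO and WT differed at 8 h without the 3 libraries. Each runs from 250 bases before to 50 bases after the annotated transcript start, 5′ to 3′ on the gene's strand, from RefSeq on GRCm38.p6. Capitals mark AGGTCA, the hexamer of retinoid receptors, and CANNTG, the E-box.
Lpar3, chr3:146220711-146221010, plus strand: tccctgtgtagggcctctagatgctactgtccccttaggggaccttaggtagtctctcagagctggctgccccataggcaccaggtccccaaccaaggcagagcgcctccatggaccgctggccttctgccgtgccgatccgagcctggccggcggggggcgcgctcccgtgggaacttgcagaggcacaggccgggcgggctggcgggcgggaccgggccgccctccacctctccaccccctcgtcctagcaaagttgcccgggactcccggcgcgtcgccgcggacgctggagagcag
Mypn, chr10:63203903-63204202, minus strand: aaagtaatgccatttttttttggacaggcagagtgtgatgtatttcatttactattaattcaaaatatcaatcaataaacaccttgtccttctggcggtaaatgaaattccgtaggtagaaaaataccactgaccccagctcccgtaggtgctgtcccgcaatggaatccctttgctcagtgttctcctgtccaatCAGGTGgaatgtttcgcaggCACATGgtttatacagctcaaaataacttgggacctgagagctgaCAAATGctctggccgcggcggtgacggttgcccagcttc
Fbxo27, chr7:28692599-28692898, plus strand: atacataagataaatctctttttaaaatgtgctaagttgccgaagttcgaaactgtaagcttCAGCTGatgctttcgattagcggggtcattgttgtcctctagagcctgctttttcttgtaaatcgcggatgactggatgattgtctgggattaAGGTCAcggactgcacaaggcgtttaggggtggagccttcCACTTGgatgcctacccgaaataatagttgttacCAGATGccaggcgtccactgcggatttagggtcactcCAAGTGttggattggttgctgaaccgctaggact
Of the 10 genes, 7 matched this promoter table, with 12 promoters; Cd93, Pecam1 and Pik3r6 are named only. Both strands were searched. AGGTCA lay in 1 of the 7 genes, Fbxo27, in the promoter shown and not in the other 3 of its 4 promoters in the table. It starts 95 bases before the transcript start and overlaps no E-box, against 18.1% of all 27025 genes in the table. No AGGTCA pair spaced by 5 bases was found in the 7 genes, against 0.0111% of all genes (3 of 27025). The exact pair is too rare for its absence from 7 genes to carry information, and variants of the hexamer were not searched. CNCCTCAG, a motif linked to STRA8 and MEIOSIN in mouse, lay in 0 of 7, against 9.12% of all genes. CANNTG lay in 6 of 7, all but Lpar3, against 75.0% of all genes. The windows of Itga9 and Rhobtb1 lie inside the genes as deposited, with transcript starts 105002 bases and 57118 to 61760 bases from the deposited gene start. These matches describe the letters in these windows only.

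Levels of the 10 genes spanned a wide range. Per kilobase of exon, the authors' mean scaled count was 256 for Lpar3, 164 for Cd93, 102 for Mypn, 74.6 for Itga9 and 48.5 for Mchr1. It was 32.9 for Pecam1, 23.1 for Rhobtb1, 21.5 for Fbxo27, 11.3 for Pik3r6 and 4.53 for Umodl1. Umodl1 and Pik3r6 thus rest on the fewest reads, and the deposited log2 values are shrunken, which understates changes of all 10 and most those of low genes. Another annotated gene overlaps 3 of the 10: Rhobtb1 overlaps A930033H14Rik, Itga9 overlaps Gm2415 and Gm10157, all on the opposite strand, and Umodl1 overlaps the miRNA gene Gm24026. No source used here gives the strand setting of the read counting, and their counts may include reads of these neighbours. Lpar3 lies at chr3:146220963-146286186, Mypn at chr10:63115795-63203952 and Fbxo27 at chr7:28692849-28699338 in the deposited table.

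**Figure D1:**
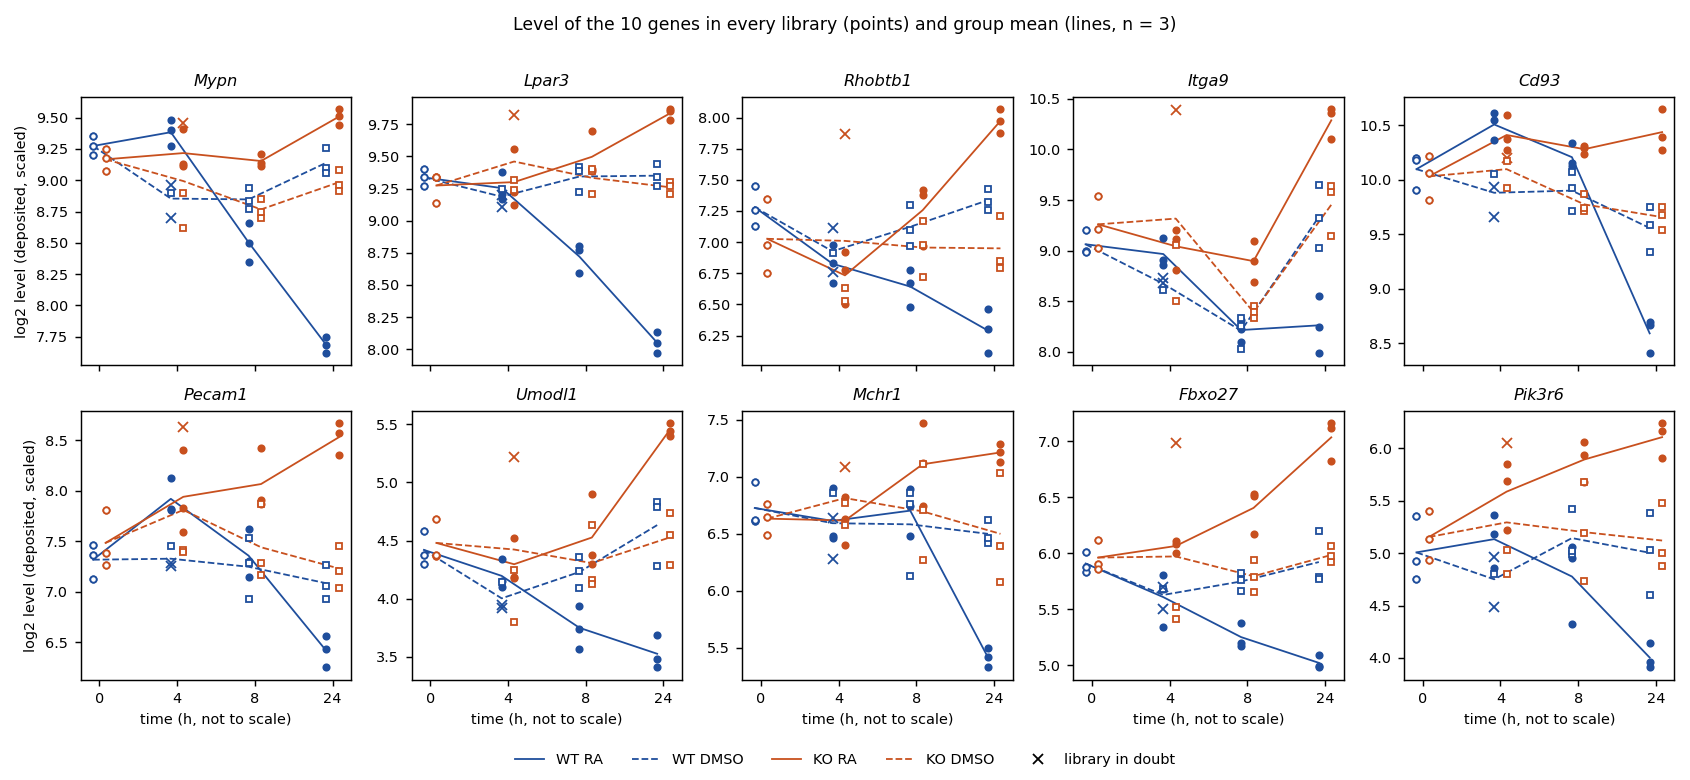
Deposited log2 level of each of the 10 genes (y axis) at 0, 4, 8 and 24 h (x axis, not to scale) in every library. Blue marks WT and orange KO; filled points are RA, open points untreated or DMSO, crosses the 3 libraries in doubt, and lines join the means of 3 libraries. At 24 h of RA the WT and KO libraries do not overlap for any of the 10 genes, and KO20 is the highest of the KO libraries labelled DMSO 4 h in each panel.

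Without RA, no difference between WT and KO was called for the 10 genes. Untreated Lpar3 was at 9.40, 9.27 and 9.34 in WT17, WT23 and WT25 and at 9.34, 9.14 and 9.34 in KO12, KO20 and KO21. Untreated Mypn was at 9.27, 9.20 and 9.35 in WT and at 9.07, 9.18 and 9.25 in KO. Untreated Fbxo27 was at 5.83, 6.01 and 5.88 in WT and at 6.12, 5.90 and 5.86 in KO. The WT and KO libraries overlapped for all 10 genes at 0 h and for all 10 in DMSO at 8 h. Of all genes, 5.8% were wholly lower and 6.01% wholly higher in KO at 0 h, and 5.89% and 5.38% in DMSO at 8 h. Differences of KO minus WT ran from -0.25 for Rhobtb1 to 0.20 for Itga9 at 0 h, and from -0.17 for Rhobtb1 to 0.20 for Pecam1 in DMSO at 8 h. By limma with Benjamini-Hochberg adjustment over all genes, 0 of 10 passed in either comparison (adjusted p = 1.0, none at an unadjusted p under 0.05). The background was 0.0% of all genes at 0 h and 0.0123% in DMSO at 8 h. At an unadjusted p under 0.05 by limma, the counts over all 16297 genes were 479 at 0 h and 617 in DMSO at 8 h. In DMSO at 24 h, 1 of the 10 did not overlap, Rhobtb1, at 7.26, 7.32 and 7.43 in WT and 6.79, 7.21 and 6.85 in KO, against 7.06% of all genes wholly lower in KO.

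At 24 h of RA the values that chose the genes were as follows. Among the surface receptors, Lpar3 stood at 7.97, 8.05 and 8.13 in WT with RA against 9.44, 9.27 and 9.34 with DMSO, and at 9.85, 9.87 and 9.78 in KO with RA against 9.30, 9.21 and 9.27. Mchr1 stood at 5.50, 5.33 and 5.42 in WT with RA against 6.62, 6.42 and 6.46, and at 7.29, 7.13 and 7.22 in KO with RA against 7.03, 6.08 and 6.39. Its KO DMSO libraries varied most, and the KO12 one lay just under the RA range. Among the adhesion molecules, Itga9 stood at 8.25, 7.99 and 8.55 in WT with RA against 9.32, 9.03 and 9.65, and at 10.36, 10.40 and 10.10 in KO with RA against 9.58, 9.64 and 9.14. Cd93 stood at 8.41, 8.69 and 8.67 in WT with RA against 9.34, 9.75 and 9.58, and at 10.39, 10.27 and 10.65 in KO with RA against 9.68, 9.54 and 9.75. Pecam1 stood at 6.56, 6.25 and 6.43 in WT with RA against 6.93, 7.06 and 7.26, and at 8.57, 8.67 and 8.35 in KO with RA against 7.20, 7.45 and 7.04. In each of these the RA and DMSO libraries of a genotype did not overlap. The same held for all 10 genes, as the choice would have it, against 24.0% of all genes wholly lower in WT and 18.1% wholly higher in KO.

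The intracellular proteins had the same order of groups at 24 h. Pik3r6 stood at 4.14, 3.91 and 3.96 in WT with RA against 4.6, 5.03 and 5.38 with DMSO, and at 5.91, 6.17 and 6.24 in KO with RA against 5.0, 5.48 and 4.88. Rhobtb1 stood at 6.30, 6.46 and 6.11 in WT with RA, and at 7.88, 7.97 and 8.07 in KO with RA. Fbxo27 stood at 4.98, 4.99 and 5.09 in WT with RA against 5.79, 6.2 and 5.77, and at 7.16, 7.12 and 6.82 in KO with RA against 5.92, 6.06 and 5.97. Mypn and Umodl1 followed the same order. Mypn stood at 7.62, 7.68 and 7.75 in WT with RA against 9.10, 9.06 and 9.26, and at 9.57, 9.51 and 9.44 in KO with RA against 8.96, 9.08 and 8.91. Umodl1 stood at 3.69, 3.41 and 3.48 in WT with RA against 4.83, 4.28 and 4.79, and at 5.51, 5.4 and 5.44 in KO with RA against 4.55, 4.74 and 4.29.

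The balance between the fall in WT and the rise in KO differed from gene to gene. On the log2 scale the change in WT ran from -1.46 ± 0.12 for Mypn (SE of the model, n = 3 lines per group, 2.75-fold lower) to -0.67 ± 0.24 for Pecam1. The change in KO ran from 0.52 ± 0.12 for Mypn to 1.30 ± 0.24 for Pecam1 (2.46-fold higher), so Mypn and Pecam1 had opposite extremes. Rhobtb1 (-1.05 in WT, 1.02 in KO) and Pik3r6 (-1.0 and 0.99) moved almost equally in each direction. The difference of KO minus WT spanned 1.75 for Cd93 to 2.06 for Rhobtb1. These folds and spans belong to the shrunken scale. In the authors' deposited table the change of Mypn at 24 h is -2.25 in WT and 0.73 in KO. In the authors' separate deposited table of the interaction, the difference, turned to KO minus WT, runs from 2.78 for Itga9 to 5.95 for Pik3r6. It is 5.6 for Umodl1. The SE there is 0.88 for Pik3r6 and 0.77 for Umodl1, the genes with the fewest reads. The authors' changes by genotype lie closer together than these values, at -1.33 in WT and 1.05 in KO for Pik3r6. For Umodl1 they are -1.78 in WT and 1.19 in KO. For all genes tested, 12.4% were called lower and 11.8% higher in WT at 24 h, and 2.47% were called lower and 6.36% higher in KO (limma, adjusted p under 0.05). In total, 65 genes were lower in WT and higher in KO, against 3 the other way. These counts were 159 and 60 without the 3 libraries. By the size of the difference, the 10 genes ranked 4 to 16 among the 65. Just inside were Mchr1 at 1.8 and Cd93 at 1.75, and Hdc at 1.79, Ptch1 at 1.77 and Nanos3 at 2.01 were genes of this range that are not among the 10. Dtx1 (2.47) and Slc10a4 (2.15) had larger differences. These 5 were named after their values were seen.

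**Figure D2:**
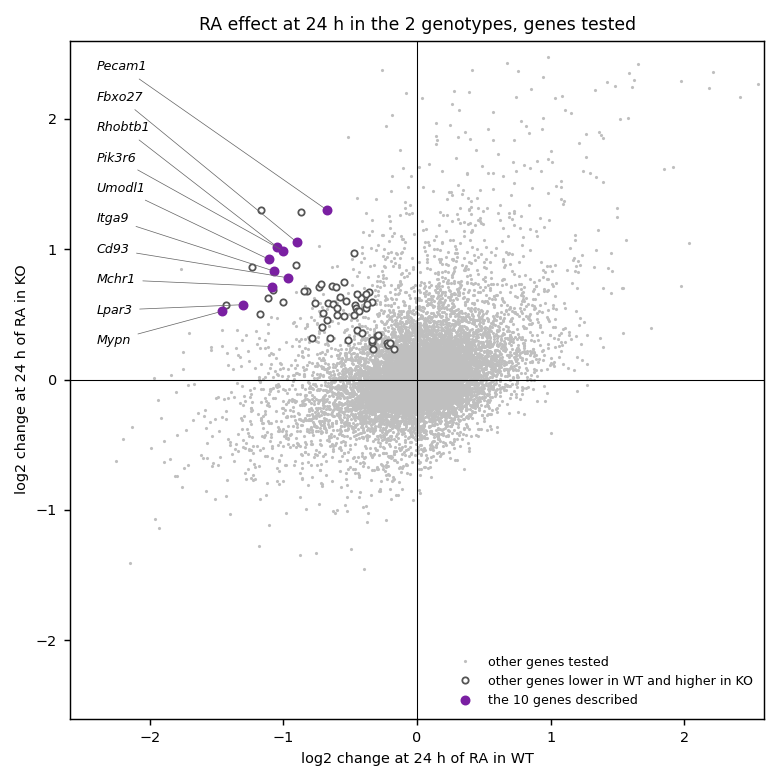
Log2 change between RA and DMSO at 24 h in WT (x axis) and in KO (y axis) for the 16297 genes tested, with 16 genes outside the axes. Purple points are the 10 genes described, which lie at upper left by choice, and open circles are the other 55 genes called lower in WT and higher in KO.

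At 8 h, in libraries the choice did not use, the RA effect was higher in KO than in WT for each of the 10 genes. Lpar3 was at 8.80, 8.59 and 8.77 in WT with RA against 9.22, 9.42 and 9.39 with DMSO, and at 9.70, 9.40 and 9.39 in KO with RA against 9.39, 9.40 and 9.21. All 3 WT libraries with RA lay below the DMSO libraries, whereas the KO libraries overlapped. Mypn was at 8.50, 8.35 and 8.66 in WT with RA against 8.77, 8.83 and 8.94, and at 9.14, 9.11 and 9.21 in KO with RA against 8.70, 8.75 and 8.85. Fbxo27 was at 5.38, 5.17 and 5.20 in WT with RA against 5.76, 5.82 and 5.66, and at 6.53, 6.51 and 6.17 in KO with RA against 5.94, 5.65 and 5.79. For Mypn and Fbxo27 neither genotype overlapped between RA and DMSO, and the signs were opposite. In all, 5 of 10 lay wholly lower with RA in WT (Mypn, Lpar3, Rhobtb1, Umodl1 and Fbxo27), against 12.6% of all genes, and 1 wholly higher (Cd93), against 12.7%. In KO 4 of 10 lay wholly higher (Mypn, Itga9, Cd93 and Fbxo27), against 10.3%. Cd93 was at 10.13, 10.15 and 10.34 in WT with RA against 9.71, 9.92 and 10.07, and at 10.24, 10.29 and 10.31 in KO with RA against 9.71, 9.87 and 9.74. The surface glycoprotein Cd93 was thus above DMSO in both genotypes at 8 h, unlike at 24 h.

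In WT at 8 h, Lpar3 fell by 0.62 on the log2 scale (SE 0.11, 1.54-fold lower, adjusted p = 0.00043, limma), as the 1 gene of the 10 called lower against a background of 3.17%. Without line WT23 it had -0.52 and missed the threshold (adjusted p = 0.06). The other changes ran from -0.50 for Fbxo27 to 0.31 for Cd93. By limma, 6 of 10 had an unadjusted p under 0.05, against 2590 of all 16297 genes. Without the 3 libraries, whose spread enters every test through the pooled error, 4 of 10 were called lower against 6.71% of all genes. These were Lpar3 (adjusted p = 1.2e-05), Mypn (-0.35 ± 0.09, adjusted p = 0.006), Fbxo27 (-0.50 ± 0.12, adjusted p = 0.0068) and Rhobtb1 (-0.48 ± 0.15, adjusted p = 0.032), by limma. The PI3K gamma subunit Pik3r6 and Umodl1 passed in neither fit, with -0.37 ± 0.26 and -0.48 ± 0.22 in the fit with all libraries. Itga9 (0.01), Pecam1 (0.11) and Mchr1 (0.12) were near 0.

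In KO at 8 h all 10 changes were above 0, with a median of 0.46 against -0.01 over all genes, of which 46.4% were above 0. Cd93 rose by 0.51 ± 0.12 (1.42-fold, adjusted p = 0.012, limma), as the 1 gene of the 10 called higher against a background of 2.9%. It missed the threshold without KO12 (0.49, adjusted p = 0.13), KO20 (0.55, adjusted p = 0.064) or KO21 (0.48, adjusted p = 0.15). Leaving out the 3 libraries, 3 of 10 were called higher against 5.3%. They were Fbxo27 (0.61 ± 0.12, adjusted p = 0.0011), Mypn (0.39 ± 0.09, adjusted p = 0.0028) and Cd93 (adjusted p = 0.0057), by limma. With the culture line as a replicate block and all libraries, 4 passed against 4.5%: Cd93 (adjusted p = 0.0033), Pecam1 (0.62 ± 0.14, adjusted p = 0.0035), Pik3r6 (0.69 ± 0.18, adjusted p = 0.017) and Mypn (adjusted p = 0.05 after rounding), by limma. With all libraries and no block, Lpar3 was at 0.16 ± 0.11 and Umodl1 at 0.22 ± 0.22.

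The difference of the RA effects, KO minus WT, at 8 h was above 0 for all 10 genes. Its median was 0.72 against 0.01 over all genes, of which 53.6% were above 0. The size ran from 0.20 ± 0.17 for Cd93 to 1.11 ± 0.31 for Fbxo27, with 1.06 ± 0.37 for Pik3r6, 0.79 ± 0.16 for Lpar3, 0.78 ± 0.30 for Rhobtb1 and 0.73 ± 0.17 for Mypn. With all libraries 0 of 10 passed limma's adjusted threshold (adjusted p from 0.12 to 1.0), against a background of 0.00614% (1 of 16297 genes). At an unadjusted p under 0.05 by limma were 6 of the 10, against 769 of all 16297 genes. When the 3 libraries were left out, 3 of 10 passed against 0.443%: Fbxo27 (1.11 ± 0.18, adjusted p = 0.0014), Mypn (0.73 ± 0.12, adjusted p = 0.002) and Lpar3 (0.79 ± 0.13, adjusted p = 0.002), by limma. With the culture line as a replicate block and all libraries, Lpar3 (adjusted p = 0.013) and Mypn (adjusted p = 0.048) passed, against 0.313%. In the authors' deposited table of the interaction, adjusted p-values at 8 h are under 0.05 for 113 of 14960 genes. The authors' deposited table gives 1.2 for Lpar3 (adjusted p = 6.6e-05), 1.11 for Mypn (adjusted p = 0.00014) and 1.90 for Fbxo27 (adjusted p = 0.00083), turned here to KO minus WT.

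**Figure D3:**
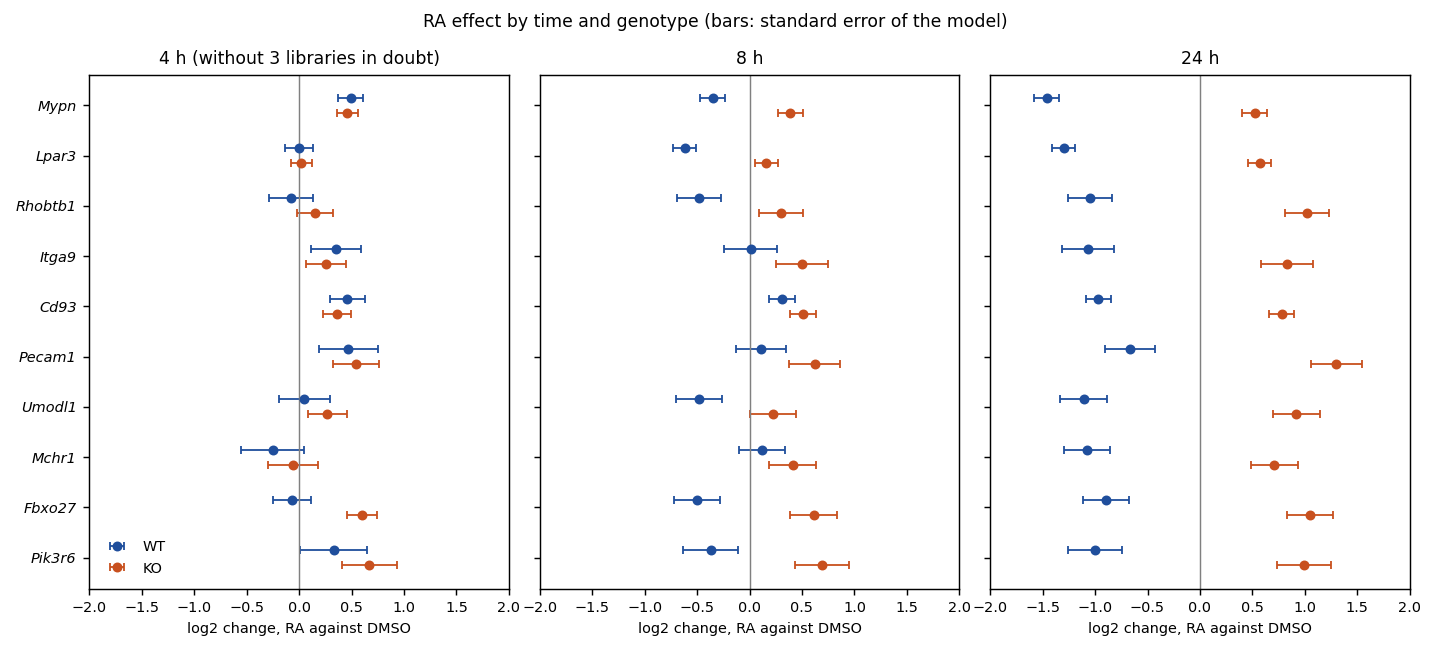
Log2 change between RA and DMSO (x axis) for each gene in WT (blue) and KO (orange) at 4, 8 and 24 h; bars are standard errors of the model. The 4 h panel leaves out the 3 libraries in doubt, which leaves 1 WT library in DMSO. At 8 h the KO point lies to the right of the WT point for all 10 genes, and at 24 h, the time that chose them, all WT points lie below 0 and all KO points above.

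With RA alone at 8 h, 8 of the 10 genes were higher in every KO library than in every WT library, all but Cd93 and Mchr1, against 13.9% of all genes. For Pik3r6 the values were 4.95, 4.32 and 5.06 in WT and 5.94, 6.06 and 5.68 in KO. For Rhobtb1 they were 6.48, 6.78 and 6.67 in WT and 7.42, 7.38 and 6.97 in KO. For Itga9, which binds matrix proteins such as tenascin C together with integrin beta1, they were 8.23, 8.10 and 8.32 in WT and 9.10, 8.69 and 8.90 in KO. Pecam1 stood at 7.30, 7.15 and 7.62 in WT and 7.87, 8.42 and 7.91 in KO, and Umodl1 at 3.94, 3.74 and 3.57 in WT and 4.30, 4.38 and 4.90 in KO. Mchr1 overlapped, at 6.89, 6.48 and 6.74 in WT and 7.47, 7.12 and 6.74 in KO. At 4 h of RA the one gene without overlap was Fbxo27, at 5.34, 5.8 and 5.68 in WT and 6.11, 6.08 and 6.0 in KO, against 8.66% of all genes.

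At 4 h no difference between the genotypes was called. In WT, Mypn rose by 0.53 ± 0.12 (adjusted p = 0.01) and Cd93 by 0.63 ± 0.12 (adjusted p = 0.0028, limma), 2 of 10 against a background of 2.34%. Leaving out line WT25 ended both calls (0.41, adjusted p = 0.4, for Mypn and 0.47, adjusted p = 0.26, for Cd93). With the culture line as a replicate block and all libraries, Pecam1 was called higher in WT as well (0.59 ± 0.14, adjusted p = 0.0077, limma), 3 of 10 against 5.52%. Mypn was at 9.27, 9.40 and 9.48 with RA against 8.90, 8.96 and 8.70 with DMSO. Without the 3 libraries, where WT DMSO is the single library WT17 with the spread taken from the other groups, Mypn had 0.49 ± 0.12 (adjusted p = 0.032, limma; background 1.18%) and Cd93 no longer passed (0.46 ± 0.17, adjusted p = 0.28). In KO 0 of 10 passed with all libraries (limma, lowest adjusted p 0.47), against 0.454% of all genes. At an unadjusted p under 0.05 by limma was 1 of the 10, against 1131 of all 16297 genes. With KO12 and KO21 alone in DMSO, Mypn (0.46 ± 0.10, adjusted p = 0.0033) and Fbxo27 (0.60 ± 0.14, adjusted p = 0.0096) were called higher in KO, 2 of 10 against 2.56%. In KO12 and KO21 Fbxo27 was then at 5.52 and 5.41 with DMSO. The KO minus WT difference at 4 h gave 0 of 10 (limma, adjusted p from 0.46 to 0.93), against 0.0%. None of the 10 had an unadjusted p under 0.05 by limma, against 1752 of all 16297 genes. Of the 10 differences, 1 was above 0 with all libraries, 4 without line KO20 and 7 without the 3 libraries. The authors' deposited table also has 0 of 29218 genes under 0.05 for this interaction, from 10 samples by its column name.

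Because the DMSO libraries at 4 h are in doubt, RA at 4 h was also set against untreated cultures. Cd93 rose in WT by 0.41 ± 0.12 (adjusted p = 0.027, limma), 1 of 10 against 5.3% of all genes, from 10.20, 9.91 and 10.18 to 10.36, 10.55 and 10.61. It missed the threshold without WT23 (0.30, adjusted p = 0.3) or WT25 (0.40, adjusted p = 0.099). In KO it had a change of 0.38 ± 0.12 (adjusted p = 0.052; background 4.81%), from 9.81, 10.06 and 10.22 to 10.27, 10.37 and 10.59. In the fit lacking the 3 libraries, Cd93 (adjusted p = 0.013) and Pecam1 (0.60 ± 0.20, adjusted p = 0.028) were called higher in WT, against 11.9%. Rhobtb1 was called lower in WT (-0.46 ± 0.15, adjusted p = 0.026), against 10.4%, and Cd93 higher in KO (adjusted p = 0.026), against 10.5%, all by limma. With the culture line as a replicate block and all libraries, Cd93 (adjusted p = 0.009) and Pecam1 (adjusted p = 0.0022) passed in WT, against 8.06%, and Cd93 (adjusted p = 0.019) and Pecam1 (0.45 ± 0.14, adjusted p = 0.022) in KO, against 7.32%, by limma. Mypn was at most 0.11 from untreated in either genotype at 4 h of RA.

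DMSO at 8 h was set against untreated cultures at 0 h, where solvent, handling and time in culture cannot be told apart. Itga9 went from 9.0, 8.99 and 9.20 untreated to 8.03, 8.34 and 8.26 in WT, and from 9.54, 9.21 and 9.03 to 8.45, 8.39 and 8.34 in KO. With all libraries 0 of 10 passed limma's threshold in WT (lowest adjusted p 0.053, background 1.12%) or in KO (lowest adjusted p 0.08, background 0.46%). At an unadjusted p under 0.05 by limma were 2 of the 10 in WT, against 2483 of all 16297 genes. In KO these were 3 of the 10, against 1960 of 16297. Both Itga9 and Mypn passed in both genotypes without the 3 libraries, against 4.15% and 2.19% of all genes. Itga9 had -0.85 ± 0.17 in WT (adjusted p = 0.0019) and -0.87 ± 0.17 in KO (adjusted p = 0.0027), and Mypn -0.43 ± 0.09 (adjusted p = 0.0019) and -0.40 ± 0.09 (adjusted p = 0.0058), by limma. With the culture line as a replicate block and all libraries Itga9 passed in both genotypes (adjusted p = 0.013 and 0.016) and Mypn in WT (adjusted p = 0.025), against 3.53% of all genes in WT and 1.96% in KO. By 24 h of DMSO Itga9 was back at 9.32, 9.03 and 9.65 in WT and 9.58, 9.64 and 9.14 in KO, so its level in DMSO differed between the times.

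The change from 4 to 8 h of RA compares no DMSO library and no library at 24 h, though both enter the pooled spread of its tests. This comparison was added after the values had been seen. Without a DMSO arm, RA and time in culture cannot be told apart in it within a genotype. In DMSO the mean of Itga9 also fell from 4 to 8 h, from 8.67 to 8.21 in WT with all libraries. In KO without the KO20 library in doubt it fell from 8.78 to 8.39. In WT, Mypn fell by 0.88 (SE 0.12, adjusted p = 0.00013) and Lpar3 by 0.53 (SE 0.11, adjusted p = 0.0089, limma), 2 of 10 against 1.35% of all genes. The call of Lpar3 needed all 3 lines (adjusted p = 0.062 without WT17, 0.31 without WT23 and 0.064 without WT25). Itga9 was called as well without the 3 libraries (-0.75 ± 0.17, adjusted p = 0.0055), against 5.43%. With the culture line as a replicate block and all libraries 4 passed in WT, Mypn, Lpar3, Itga9 (adjusted p = 0.031) and Pecam1 (-0.56 ± 0.14, adjusted p = 0.012), against 4.1%. In KO 0 of 10 passed (limma, lowest adjusted p 0.28, background 0.147%). At an unadjusted p under 0.05 by limma were 2 of the 10 in KO, against 2099 of all 16297 genes. Rhobtb1 was called higher in KO without the 3 libraries (0.52 ± 0.15, adjusted p = 0.031), against 3.49%. The difference of KO minus WT was above 0 for all 10 genes, with a median of 0.68 against 0.01 over all genes. None passed with all libraries (limma, lowest adjusted p 0.28, background 0.0%). For this difference 5 of the 10 had an unadjusted p under 0.05 by limma, against 379 of all 16297 genes. After the 3 libraries were left out, Mypn (0.82 ± 0.12, adjusted p = 0.0025) and Lpar3 (0.73 ± 0.13, adjusted p = 0.015) passed by limma, against 0.0369%. This comparison and the RA effect at 8 h share the RA libraries at 8 h.

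The 10 genes varied among themselves between culture lines. The order is given over the 6 conditions of each genotype other than DMSO at 4 h, which holds the 3 doubtful libraries. Pecam1 was highest in KO20 of the 3 KO lines in 6 of 6 conditions and lowest in WT23 of the WT lines in 5 of 6. Mchr1 was highest in WT17 and lowest in WT23 in 5 of 6 conditions each. Pik3r6 was highest in WT25 and in KO20 in 5 of 6 conditions each, and lowest in KO21 in 5. Itga9 was lowest in KO21 and in WT23 in 5 of 6 conditions, Cd93 highest in KO21 in 5, and Mypn highest in WT25 in 6. As a description, the 45 pairs of genes had a median Pearson correlation of 0.108 within groups over 38 libraries, from -0.389 to 0.766, with library and line shared by all points. The order of the lines thus differed between genes.

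The known partners and relatives of the 10 genes, taken from 10 lists, are described at 24 h, where the choice fixes nothing for them. With all libraries, of 141 genes tested over these and the marker lists, 2 were called both lower in WT and higher in KO. The background was 0.399% of all genes (65 of 16297). The backgrounds for the counts below are the 12.4% lower and 11.8% higher in WT and 2.47% lower and 6.36% higher in KO given above, and a share near these is not a result about a list. The genes with both calls were Lasp1, a binding partner of the myopalladin family list, and Gfra1, the GDNF receptor subunit, chosen for mention after its values were seen. Without the 3 libraries Itga7 (-0.23 in WT, 0.45 in KO), Fbxo17 (-1.11 and 0.36) and the endothelial marker Vwf (-0.52 and 0.67) carried both calls as well. Of all genes, 159 of 16268 then did. The counts below are with all libraries. Of 7 LPA receptors and LPA enzymes tested, 2 rose in WT, Enpp2, the enzyme that makes LPA (0.61 ± 0.17, adjusted p = 0.0061), and the receptor Lpar4 (0.54 ± 0.17, adjusted p = 0.018, limma), and 0 of 7 passed in KO. The 5 genes tested of the list made for MCH were the G protein subunits Gnai1, Gnai2, Gnai3 and Gnaq, and Nelfe. None of these is particular to MCH signalling. Of the 5, 1 rose in WT, Gnai1 (0.81 ± 0.13, adjusted p = 1.3e-05), and none passed in KO. Of 19 integrin subunits, 2 fell and 2 rose in WT, with the largest changes in Itgb5 (-0.58 ± 0.12, adjusted p = 0.00035) and Itgb4 (0.57 ± 0.12, adjusted p = 0.00057), and 1 rose in KO, Itga7 (0.45 ± 0.10, adjusted p = 0.0029). Of 9 ligands of alpha9 beta1 integrin, Tgm2 rose in WT (2.22 ± 0.39, adjusted p = 8.1e-05) and KO (2.36 ± 0.39, adjusted p = 9.3e-05), and Adam15 fell in KO (-0.30 ± 0.08, adjusted p = 0.013). Of 3 genes of the CD93 family and ligand list 0 passed in either genotype. These calls are by limma over all genes.

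Relatives of the intracellular proteins follow. Of 8 class I PI3K subunits, 2 fell in WT, Pik3cd (-0.62 ± 0.13, adjusted p = 0.00046) and Pik3ca (-0.36 ± 0.07, adjusted p = 0.0002), both catalytic, and 1 rose in KO, Pik3r5, the other regulatory subunit of PI3K gamma (1.01 ± 0.22, adjusted p = 0.0022, limma). Of 9 RhoBTB proteins and CUL3 partners, 1 fell and 3 rose in WT, led by Klhl13 (0.71 ± 0.15, adjusted p = 0.0007) and Rhobtb2 (0.32 ± 0.11, adjusted p = 0.035), and 1 fell and 2 rose in KO, led by Klhl13 (0.47 ± 0.15, adjusted p = 0.044) and Kctd13 (0.33 ± 0.08, adjusted p = 0.0042). Of 6 genes of the glycoprotein-binding F-box list, which includes ubiquitin ligase core subunits, 2 fell and 1 rose in WT, led by Fbxo17 (-1.11 ± 0.14, adjusted p = 5.6e-07) and Fbxo6 (-0.58 ± 0.17, adjusted p = 0.0096). In KO 1 of these 6 rose, Fbxo2 (0.90 ± 0.22, adjusted p = 0.007). Of 12 genes of the myopalladin family and its partners, 3 fell and 1 rose in WT, led by alpha-actinin Actn2 (-1.34 ± 0.16, adjusted p = 2.3e-07) and Ankrd23 (1.00 ± 0.21, adjusted p = 0.00043). In KO 1 fell and 3 rose, led by Ankrd23 (1.75 ± 0.21, adjusted p = 9.9e-07) and the actin-binding Lasp1 (0.67 ± 0.11, adjusted p = 4e-05); Lasp1 had -0.36 ± 0.11 in WT (adjusted p = 0.012). Of 3 zona pellucida domain genes, Zp3 fell in WT (-0.44 ± 0.12, adjusted p = 0.0052) and none passed in KO.

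Because Cd93 and Pecam1 are known from endothelial and blood cells, markers of other cells are given beside them. Of 19 endothelial markers 8 were below the filter (Tie1, Emcn, Esam, Cldn5, Sox17, Icam2, Robo4 and Sox7) and 11 were tested. In WT at 24 h of RA 2 of 11 fell, Ptprb (-0.76 ± 0.15, adjusted p = 0.0002) and Tek (-0.73 ± 0.23, adjusted p = 0.018, limma). In KO 3 of 11 rose, Erg (1.27 ± 0.24, adjusted p = 0.00045), Plvap (0.87 ± 0.25, adjusted p = 0.024) and Vwf (0.67 ± 0.22, adjusted p = 0.05 after rounding, limma). In WT, Erg (0.20 ± 0.24), Plvap (-0.64 ± 0.25, adjusted p = 0.061) and Vwf (-0.52 ± 0.22, adjusted p = 0.082) did not pass by limma. Without the 3 libraries Vwf was called lower in WT. The summed log2 level of the 19 endothelial markers was 11.37 to 11.50 in WT with DMSO at 24 h and 11.23 to 11.46 with RA. In KO it was 11.51 to 11.68 with DMSO and 12.13 to 12.21 with RA. The sum was thus higher in KO with RA, while the median change over the 11 markers was 0.01 in KO and -0.35 in WT. Kdr (-0.24), Flt1 (-0.30), Tek (-0.07), Cdh5 (0.0) and Egfl7 (0.0) did not pass in KO. Neither did Ptprb (0.30), Nos3 (0.25) and Sox18 (0.01), whose changes were above 0. The part of these cells in the changes of Cd93 and Pecam1 was not tested. Of 13 macrophage and leukocyte markers 5 were below the filter (Adgre1, Csf1r, Aif1, C1qa and C1qb). Of the 8 tested, Mrc1 (-1.85 ± 0.26, adjusted p = 2.8e-06) and Ptprc (-1.16 ± 0.23, adjusted p = 0.00025) fell in WT, and none passed in KO. The summed level of the 13 markers was 8.75 to 9.12 in WT with DMSO at 24 h and 7.78 to 8.03 with RA. In KO it was 8.83 to 10.96 with DMSO and 8.64 to 10.74 with RA. Lyz2 varied most of those tested, with an SE of 2.11 against 0.63 for the next, Laptm5. Its share in the wide KO range was not separated. The part of macrophages and leukocytes in the fall in WT was likewise not tested.

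The remaining lists cover feeders, other somatic cells and germ cells. Of 15 feeder fibroblast markers tested, 1 fell in each genotype, the collagen Col1a1 (-0.63 ± 0.13 in WT, adjusted p = 0.00035, and -0.54 ± 0.13 in KO, adjusted p = 0.0044, limma). The summed log2 level of the 16 listed was 14.77 to 15.48 in WT with DMSO at 24 h and 14.56 to 15.35 with RA. In KO it was 15.16 to 15.69 with DMSO and 14.75 to 15.01 with RA, thus wholly lower with RA. The median change over the 15 markers was -0.13 in WT and -0.41 in KO. The part of feeder RNA in the changes of the 10 genes was not tested. Of 5 muscle markers, which bear on Mypn, Myog fell in WT (-0.59 ± 0.15, adjusted p = 0.0049) from a mean level of only 4.42, and none passed in KO. Of 8 Sertoli and Leydig cell markers none passed in either genotype. Of 13 germ cell markers 5 fell and 2 rose in WT, led by the stem cell regulators Zbtb16 (-1.17 ± 0.14, adjusted p = 2.3e-07) and Etv5 (-1.16 ± 0.09, adjusted p = 6.9e-11), and 3 rose in KO, led by Sall4 (1.07 ± 0.12, adjusted p = 5.5e-07) and Sohlh1 (0.76 ± 0.21, adjusted p = 0.018). Gfra1 had -0.79 ± 0.08 in WT (adjusted p = 2e-08) and 0.32 ± 0.08 in KO (adjusted p = 0.013, limma).

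Genes with the pattern most like that of the 10 were found by Pearson correlation with the mean of their 14 centred group means. The 6 nearest named genes were Dtx1 (0.967), Lipg (0.963), Cmip (0.94), Cd9 (0.939), Slc5a4a (0.937) and Mgat4a (0.928). The 10 themselves, which are part of that mean, ran from 0.779 for Cd93 and 0.782 for Itga9 to 0.941 for Pik3r6. Dtx1, which encodes a regulator of Notch signalling, had 24 h changes of -1.17 in WT and 1.30 in KO, and at 8 h -0.07 and 0.85. Of the other 55 genes lower in WT and higher in KO at 24 h, 54 had a difference of RA effects above 0 at 8 h, with a median of 0.4. The placement at 8 h described for the 10 genes was thus seen in nearly all genes with their 24 h pattern.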

How the data were processed

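RNA-seq values of 42 libraries in 14 groups of 3 were used; the labels list 43 samples because WT17 at 24 h of RA has 2, held by a single column. Per the labels' protocols, all RNA was isolated on 1 day and a stranded mRNA kit was used. STAR 2.5.1b, DESeq and the build GRCm38.p4 are named in the submitters' processing notes; the read counter is not given in the sources used here. The deposited values are log2 levels scaled between libraries by the authors and shrunken for low genes (range -4.5 to 18), which hides the depth, so no counting interval can be given. The authors' mean scaled count (mean signal) was used to describe levels, and other deposited comparison columns (log2 fold changes, adjusted p-values) only where named.

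The filter kept genes whose value reached log2 of 10 in 3 or more libraries. A model with 1 mean per group over all 14 groups was fitted with limma 3.58.1 in R 4.3.3 (trend and robust options), with Benjamini-Hochberg adjustment over all genes tested at 0.05. The model was also run on simulated normal values, drawn independently for each library with no effect of culture line. That run cannot check how the lines affect the tests. The 10 genes, the lists of relatives and markers and the alternatives were chosen with earlier results of these data known. All 10 genes and Stra8 are named, with up to 2 genes with the largest called changes of each list and comparison, and the 6 genes most alike. Vwf was named beyond this rule after its values were seen. Other genes of the marker lists were also named beyond it, among them Kdr, Flt1, Cdh5, Egfl7, Sox18, Nos3, Lyz2 and Laptm5. Libraries of the same line recur across conditions by their names in the labels, and deviated together: 101 of 108 same-line pairs had a correlation over 0.1 (median 0.39), against a median of -0.211 for different lines. Alternatives were leaving out the 3 doubtful libraries or each line, no filter, quantile normalization, and culture line as a replicate block. Promoters were taken from RefSeq by gene symbol, and figures were drawn with matplotlib 3.10.9.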

Additional observations from a re-analysis of the deposited data

Results flagged for a closer look

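The RA effect at 8 h differed between KO and WT, by a test of the difference itself, for 3 of the 10 genes when the 3 libraries in doubt were left out. The difference, KO minus WT on the log2 scale, was 1.11 for Fbxo27, 0.73 for Mypn and 0.79 for Lpar3. The sizes were the same with all libraries, where none passed limma's adjusted threshold.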

How the results depend on the processing

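The 24 h values chose the 10 genes, so their directions at 24 h were fixed by the choice and are given as a description only. They held under all alternatives run. Medians without 1 line each ran from -1.08 to -1.01 in WT, 0.78 to 0.96 in KO and 1.91 to 1.98 for the difference. Numbers of the 10 genes called are given next. Without the 3 doubtful libraries they were 4 in WT and 3 in KO at 8 h with 3 for the difference, 1 in WT and 2 in KO at 4 h, 3 in WT and 1 in KO for RA 4 h against untreated, 2 in WT and 2 in KO for DMSO 8 h, and, for RA 8 h against 4 h, 1 in KO and 2 for the difference. With culture line as a replicate block they were 4 in KO at 8 h with 2 for the difference, 2 in WT and 2 in KO for RA 4 h against untreated, 2 in WT and 1 in KO for DMSO 8 h, and 4 in WT for RA 8 h against 4 h. The block changed 1 other call, Pecam1 in WT at 4 h (3 of 10 called in place of 2). With both changes, an alternative added after seeing the data, they were 5 lower and 1 higher in WT (11.7% and 9.44% of all genes), 6 higher in KO (8.07%) and 6 higher for the difference (3.15%) at 8 h, 1 in WT and 4 in KO at 4 h (1.89% and 3.79% higher), 4 in WT (2 lower and 2 higher, against 17.0% and 17.2%) and 3 in KO (16.1%) for RA 4 h against untreated, 2 in WT and 2 in KO for DMSO 8 h (9.93% and 7.15% lower), and 6 in WT (11.5% lower), 3 in KO (9.58% higher) and 6 for the difference (1.35%) for RA 8 h against 4 h. For RA 4 h against untreated in WT, no filter gave 0 and quantile normalization 2. Of all genes, 669 of 33587 were called higher with no filter and 799 of 16284 with quantile normalization. The cause of these differences was not tested.

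Without 1 line each the counts ran from 0 to 4 in WT, 0 to 1 in KO and 0 to 1 for the difference at 8 h; 0 to 3 in WT and 0 to 1 in KO at 4 h; 0 to 3 in WT and 0 to 1 in KO for RA 4 h against untreated; 0 to 2 for DMSO 8 h in WT; and 1 to 4 for RA 8 h against 4 h in WT. The other counts stayed at 0. Numbers of all genes called, in either direction, also varied between these fits. At 8 h they ran from 256 to 953 in WT, 197 to 579 in KO and 0 to 4 for the difference. At 4 h they ran from 63 to 1913 in WT and 11 to 188 in KO. For RA 4 h against untreated they ran from 483 to 1918 in WT and 450 to 1999 in KO. They were 30 to 440 for DMSO 8 h in WT and 39 to 505 for RA 8 h against 4 h in WT. The 4 h change in KO reversed for Pecam1 without KO12 (-0.01; 0.31 without KO20) and for Fbxo27 without KO12 (-0.15) or KO21 (-0.16; 0.59 without KO20), where the KO20 library labelled DMSO 4 h weighs more. Depth limits Umodl1 and Pik3r6 most, the lowest of the 10 per kilobase.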
